A study of Mus musculus with 2 samples.

Results

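Cholesterol is built from acetyl-CoA by a long chain of enzymes. The genes described here are 8 of that chain, namely Hmgcs1, Idi1, Fdps, Fdft1, Sqle, Lss, Cyp51 and Dhcr7, in mouse testis. They were chosen by name. Every probe set (a group of short probes read together as 1 transcript) annotated to exactly 1 of these symbols was taken. This gave 11 probe sets for the 8 genes, out of 10833 probe sets with a single symbol, which stand for 8251 genes. Fdps was read by 4 probe sets and each of the other 7 genes by 1. No probe set annotated to several genes named any of them.

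Polyadenylated RNA from testes of Mili-/- mice at day 10 after birth was set against the same RNA from Mili+/- mice of that age, so both genotypes carried at least 1 mutant Mili allele. MILI, the product of Piwil2, is a Piwi protein of male germ cells that binds small RNAs. Each genotype was read on 1 array, and the labels give neither the number of mice behind it, nor their strain, nor how the allele was made. With 1 array per genotype no difference could be tested against replicate error, and no p-value is given. Every difference below is between these 2 arrays.

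The 8 enzymes work in sequence. HMG-CoA synthase (Hmgcs1) feeds the mevalonate pathway, whose products are turned into farnesyl diphosphate by isopentenyl diphosphate isomerase (Idi1) and farnesyl diphosphate synthase (Fdps). Squalene synthase (Fdft1), squalene epoxidase (Sqle) and lanosterol synthase (Lss) then make lanosterol, and Cyp51 and 7-dehydrocholesterol reductase (Dhcr7) act on the way to cholesterol. When cell sterol is low, the transcription factor SREBP-2 raises the transcription of the whole chain, together with factors that bind CCAAT boxes and GC boxes in the same promoters. In the testis, Sertoli cells and germ cells need cholesterol for their membranes and Leydig cells turn it into steroids. Intermediates just after lanosterol are known as meiosis-activating sterols.

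The promoters of 5 of the 8 genes could be matched in RefSeq (GRCm38.p6), each as 250 bases before and 50 bases after a start site. They were Hmgcs1, Idi1, Lss, Cyp51 and Dhcr7. Printed here are that of Hmgcs1, whose difference between the genotypes lay close to that of the middle gene, and those of Lss and Dhcr7, which had the 2 lowest differences of the set. Dhcr7 had 3 listed start sites, and the last of them is shown because its window held the most matches. Capitals mark matches, on either strand, to an SREBP-type element spelled TCACNCCAC, to CCAAT and to the GC box GGGCGG, and no matches overlapped. The windows, all on the plus strand, are chr13:119690101-119690400 for Hmgcs1, chr10:76531355-76531654 for Lss and chr7:143829964-143830263 for Dhcr7.
Hmgcs1: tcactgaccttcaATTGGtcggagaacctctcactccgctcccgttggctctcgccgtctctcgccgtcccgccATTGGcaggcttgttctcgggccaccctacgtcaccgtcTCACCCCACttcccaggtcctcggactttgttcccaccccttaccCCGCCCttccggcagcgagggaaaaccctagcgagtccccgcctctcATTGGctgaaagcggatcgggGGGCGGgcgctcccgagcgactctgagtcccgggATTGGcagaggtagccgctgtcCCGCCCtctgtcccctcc
Lss: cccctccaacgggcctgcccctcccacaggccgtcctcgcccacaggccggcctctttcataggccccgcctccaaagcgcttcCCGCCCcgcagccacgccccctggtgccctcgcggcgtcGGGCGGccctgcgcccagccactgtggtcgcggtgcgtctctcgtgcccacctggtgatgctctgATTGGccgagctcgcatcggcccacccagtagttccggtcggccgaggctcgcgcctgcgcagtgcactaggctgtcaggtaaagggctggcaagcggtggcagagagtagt
Dhcr7: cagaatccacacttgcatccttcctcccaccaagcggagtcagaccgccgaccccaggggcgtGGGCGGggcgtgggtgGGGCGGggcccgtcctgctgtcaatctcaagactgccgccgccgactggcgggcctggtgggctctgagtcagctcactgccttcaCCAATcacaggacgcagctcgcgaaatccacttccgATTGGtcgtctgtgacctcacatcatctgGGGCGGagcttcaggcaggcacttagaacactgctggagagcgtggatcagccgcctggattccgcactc

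The SREBP-type element stood once in the Hmgcs1 window, at positions -137 to -129 relative to the start site, and in none of the other 6 windows of the set. Only the spelling TCACNCCAC was searched, so a window without a match may still hold an SREBP site spelled otherwise. Over all 32851 promoters of the table, 1.24% held it. CCAAT occurred 4 times for Hmgcs1, 2 times for Idi1, 1 time each for Lss and Cyp51 and 2 times in the last Dhcr7 window. At least 1 CCAAT stood in 37.4% of all promoters and, counting any window of a gene, in 41.1% of all genes. GC boxes numbered 3 for Hmgcs1, 2 for Lss, 1 each for Idi1 and Cyp51 and 3 in the last Dhcr7 window. At least 1 GC box stood in 35.7% of all promoters and in 38.2% of all genes. These shares say how many held a match, not how many matches each held. The other 2 Dhcr7 windows held 1 GC box between them and no CCAAT. These letters are a description of the windows and were not tied to any level on the arrays.

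The values are the deposited signal intensities, on a linear scale. For differences, signals below the 20th percentile of their array (7.0 in Mili-/- and 6.3 in Mili+/-) were set to that value. They were then taken to log2, and the median probe set of each array (41.5 in Mili-/- and 38.5 in Mili+/-) was subtracted. A difference is Mili-/- minus Mili+/-. This centring removed a shift of 0.11, and it left the 5095 genes whose brighter array reached the median with a median difference of -0.13, so that this value, and not 0, is where the middle gene lies. The SD between probe sets of the same gene was 0.31 over 720 genes, and 0.17 over the 164 genes with several probe sets above the 75th percentile on both arrays. It covers neither animals nor hybridisations.

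At the start of the chain, Hmgcs1 and Fdps lay close in both genotypes and Idi1 lower in Mili-/-. Hmgcs1 gave 504.9 in the Mili-/- testis and 531.6 in the Mili+/- testis. The brightest Fdps probe set read 612.7 in Mili-/- and 629.6 in Mili+/-. After centring, the difference was -0.18 for Hmgcs1 and -0.15 for Fdps, within 0.06 of the median of all genes. Idi1 stood further down, with 181.8 in Mili-/- and 213.4 in Mili+/-, a difference of -0.34, or 1.27-fold lower. Of the 5095 genes compared, 1046 lay lower than Idi1.

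Fdps was the only gene of the set with more than 1 probe set. The second bright one, whose suffix marks sequence shared within a family, read 429.4 in Mili-/- and 500.8 in Mili+/-, a difference of -0.33. Both bright probe sets were therefore lower in Mili-/-, and they stood 0.18 apart, about the SD between bright probe sets of the same gene. The other 2 gave 7.0 and 4.9 in Mili-/- against 4.7 and 4.4 in Mili+/-. They lay at or under the floor on both arrays, so no difference is given for them.

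On the way from farnesyl diphosphate to lanosterol, Fdft1 and Sqle lay close in both genotypes and Lss was lower in Mili-/-. Fdft1, the first enzyme committed to sterols, read 248.8 in Mili-/- and 239.4 in Mili+/-. Sqle, the oxygen-dependent epoxidase, had 316.3 in Mili-/- and 310.6 in Mili+/-. Both were slightly higher in Mili-/- as deposited and slightly lower after centring, at -0.05 for Fdft1 and -0.08 for Sqle, and both lay above the median of all genes. Lss, which closes the sterol rings, read 56.2 in Mili-/- and 70.3 in Mili+/-. Its difference was -0.43, or 1.35-fold lower, with 624 of 5095 genes below it.

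**Figure D1:**
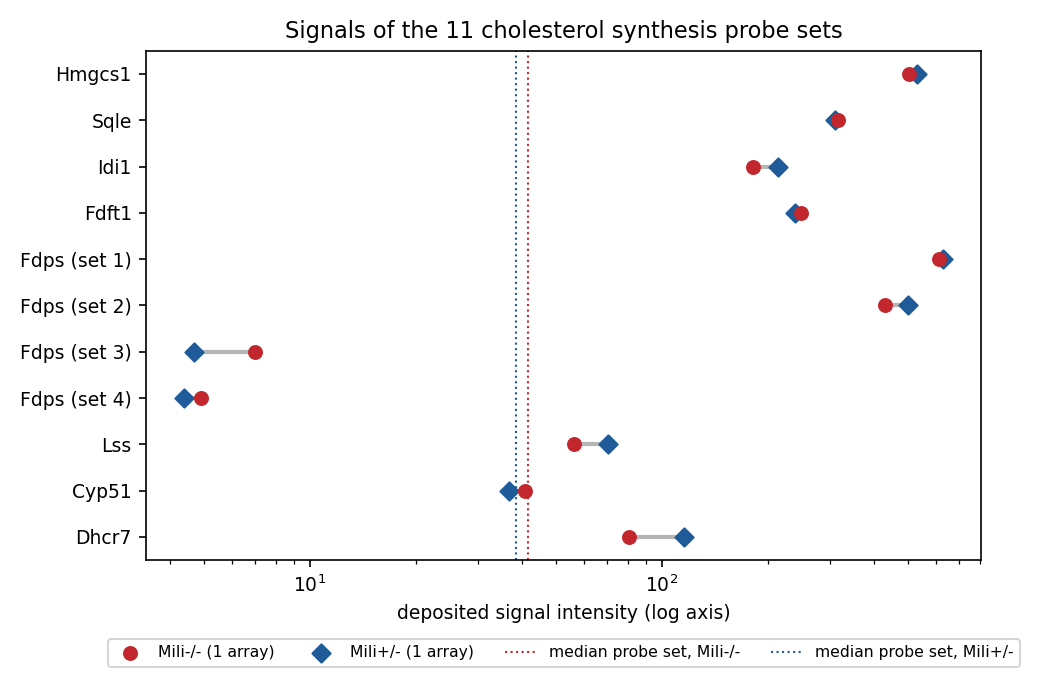
Deposited signal intensity (log axis) of the 11 probe sets of the 8 genes, as red circles for the Mili-/- array and blue diamonds for the Mili+/- array, with dotted lines at the median probe set of each array (41.5 in Mili-/- and 38.5 in Mili+/-). The widest gap among probe sets above these medians is that of Dhcr7, 80.7 in Mili-/- against 115.6 in Mili+/-, and the 2 dim Fdps probe sets lie far left of both lines.

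After lanosterol, the 2 genes of the set went apart. Cyp51, the lanosterol demethylase, had 40.9 in Mili-/- and 36.7 in Mili+/-. It stayed just under the median probe set on both arrays and so did not pass the brightness filter. Its difference after centring was 0.05. Dhcr7, which reduces 7-dehydrocholesterol to cholesterol in the last part of the chain, read 80.7 in Mili-/- and 115.6 in Mili+/-. It was the lowest of the set at -0.63, or 1.55-fold lower, and 192 of the 5095 genes lay below it. Its distance from the median of all genes, -0.50, exceeded the probe set SD of 0.31 but not 2 of these SDs (0.62). Of all genes compared, 12.0% lay at least 1 such SD below that median. The SD of 0.31 pools bright genes with dimmer ones such as Dhcr7, and none was computed for genes of its brightness alone.

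Over the set, 7 of 8 genes passed the brightness filter, all of them on both arrays. The median of the 7 was -0.18, against -0.13 for all genes compared. All 7 lay below 0, where 68.9% of all genes did, and 5 of 7 lay below the median of all genes. As deposited, without centring, 3 of the 8 genes were higher in Mili-/- and 5 lower. For 6 of 7 genes the distance from the median of all genes was less than the SD between probe sets of 0.31, as for 74.4% of all genes. Lss was only just inside it, at -0.307 from that median. Idi1, above the 75th percentile on both arrays, lay -0.22 from it, past the SD of 0.17 for bright probe sets. Such a distance was common, since 1274 of the 5095 genes compared lay below -0.30 and 1046 lay below Idi1 itself (-0.34).

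At 1.5-fold, 1 of the 7 genes was lower in Mili-/- (Dhcr7) and none higher, with 5.04% of all genes lower and 2.47% higher at that threshold. Among the 1941 genes that, like Dhcr7, lay between the median and the 75th percentile on both arrays, a range chosen after its value was seen, 4.28% were as much lower. With a lower threshold of 0.32 on the log2 scale, Idi1, Lss and Dhcr7 counted as lower and no gene as higher, against 22.3% lower and 7.28% higher among all genes. None reached 2-fold, where 0.53% of all genes were lower and 0.314% higher.

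The count of Dhcr7 rested on the scaling. With the values as deposited its difference was -0.52. Quantile normalization gave -0.50, and loess on brightness also -0.50, all short of 1.5-fold (0.58). These scalings also turned the split of all genes past 1.5-fold, which was 126 higher and 257 lower after centring on the median. It became 197 higher and 124 lower as deposited, 182 higher and 146 lower by quantile normalization, and 184 higher and 138 lower by loess. Under each of them Dhcr7 was the lowest of the set, and 5 of 7 genes lay below the median of all genes. Fdft1 and Sqle changed sign with the scaling, to 0.06 and 0.03 as deposited.

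**Figure D2:**
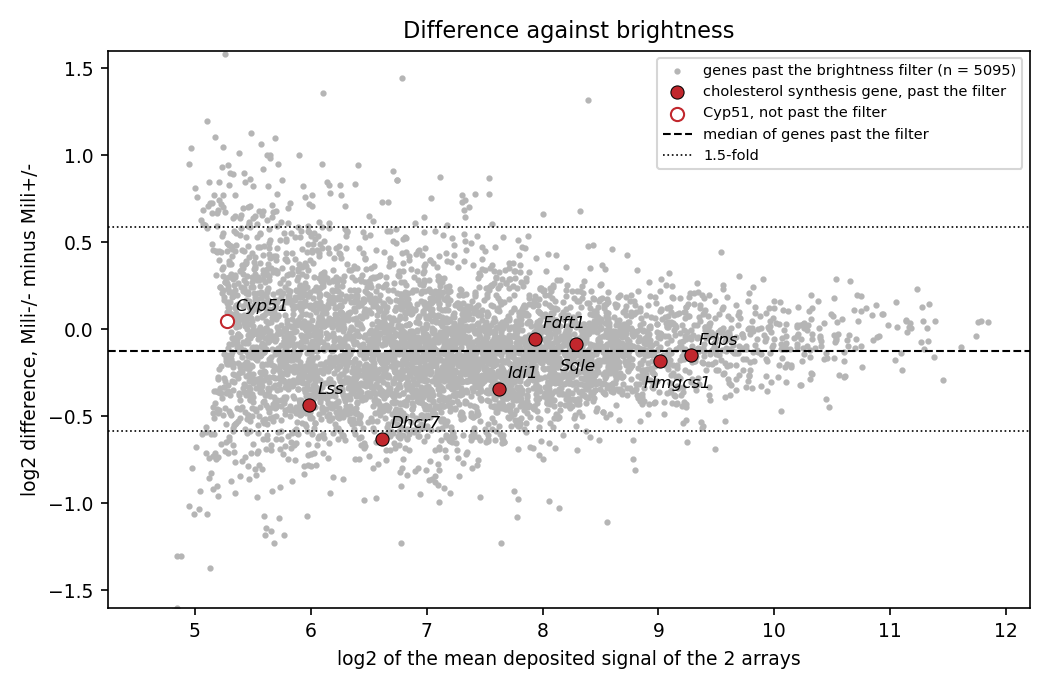
Log2 difference (Mili-/- minus Mili+/-, after centring) against log2 of the mean signal of both arrays for the 5095 genes past the brightness filter (grey), with the cholesterol synthesis genes in red and Cyp51, which did not pass, as an open circle. Dashed and dotted lines mark the median of all genes (-0.13) and 1.5-fold, and 9 genes lie outside the vertical range. Hmgcs1, Fdps, Fdft1 and Sqle sit near the dashed line, and Dhcr7 just below the lower dotted line.

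The other genes listed for sterol synthesis lay on both sides of 0. Of 15 listed, 11 had a probe set and 9 passed the filter, with a median of -0.20 and a range from -0.62 to 0.29, and 4 of the 9 were above 0. At 1.5-fold 1 of the 9 was lower and none higher. That gene was Msmo1, the methyl sterol oxidase that acts soon after Cyp51, with 70.2 in Mili-/- and 100.3 in Mili+/- (-0.62). Under each of the other 3 scalings it stood at -0.51, short of 1.5-fold like Dhcr7. Mvd, which makes isopentenyl diphosphate, the substrate of Idi1, read 69.5 in Mili-/- and 91.9 in Mili+/- (-0.51). Ggps1, which draws farnesyl diphosphate off towards protein prenylation, stood at -0.29, although a second, dim probe set stood at 0.19.

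On the stretch after lanosterol, 7 genes passed the filter, Dhcr7 among them. Of these, 4 lay below the median of all genes and 3 above. Tm7sf2, a sterol reductase that acts right after Cyp51, had 79.6 in Mili-/- and 60.4 in Mili+/- (0.29), although a second, dim probe set read 12.3 in Mili-/- and 16 in Mili+/- (-0.49). Sc5d, the desaturase whose product Dhcr7 reduces, was dim on both arrays. It read 26.4 in Mili-/- and 36.6 in Mili+/- (-0.58), and it did not pass the filter. A second, dimmer Sc5d probe set read 13.8 in Mili-/- and 23.1 in Mili+/- (-0.85). Lbr, of the same stretch and past the filter, had 189.8 in Mili-/- and 214.7 in Mili+/- (-0.29).

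Taking the 8 genes and the other listed genes together, with Ggps1 of the side branch included, 19 of 23 had a probe set and 16 passed the filter. Their median was -0.19, 0.07 below that of all genes, and 10 of 16 lay below the median of all genes. Of the 16, 2 were at least 1.5-fold lower (Dhcr7 and Msmo1) and none was as much higher, again against 5.04% and 2.47% of all genes. By stage, the 6 genes up to the isoprenoid diphosphates had a median of -0.24, the 3 from there to lanosterol -0.08, and the 7 after lanosterol -0.20. The range was widest after lanosterol, from -0.63 to 0.29. No stage was tested against another.

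**Figure D3:**
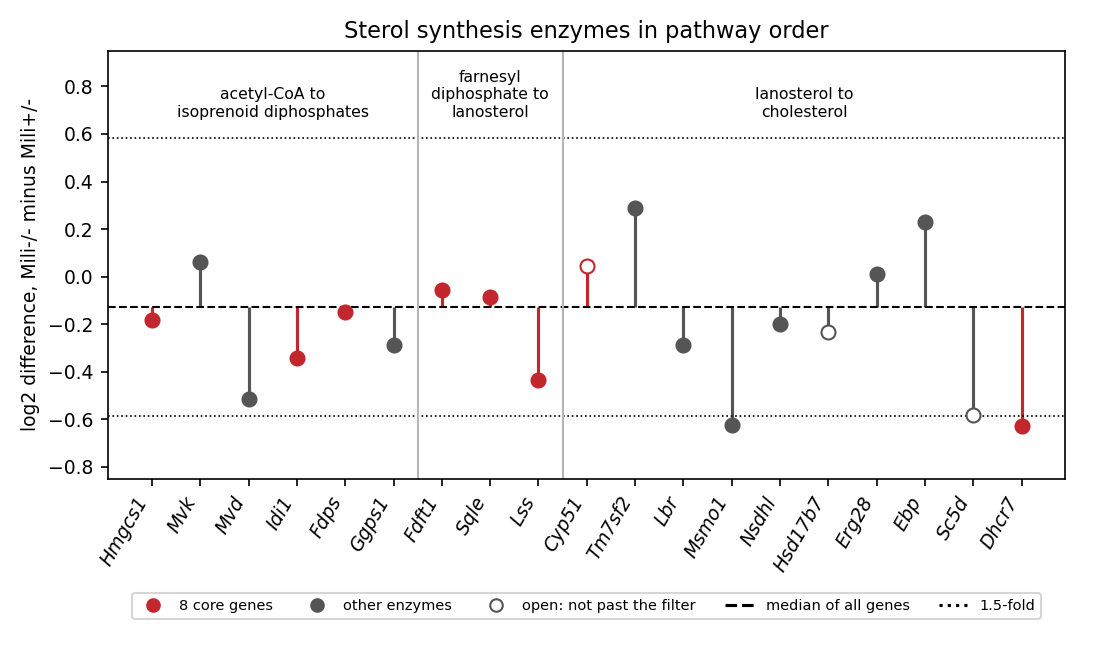
Log2 difference (Mili-/- minus Mili+/-, after centring) of the 19 measured genes listed for sterol synthesis, Ggps1 among them, in pathway order. The 8 described genes are red, others grey, and open circles mark the 3 genes that did not pass the brightness filter. Stems start at the median of all genes (-0.13, dashed) and dotted lines mark 1.5-fold. Low points (Mvd, Lss, Msmo1 and Dhcr7, and Sc5d as an open circle) are spread along the chain. The highest points, Tm7sf2 (0.29) and Ebp (0.23), lie well above the dashed line.

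Of 15 listed genes that sense sterol or set the level of the chain, 9 had a probe set and 7 passed, with a median of -0.08, a range from -0.45 to 0.11 and none past 1.5-fold. Srebf1, which encodes the SREBP-1 proteins, read 192.8 in Mili-/- and 206.6 in Mili+/- (-0.21). Nfyb, a subunit of the factor that binds CCAAT, had 177.6 in Mili-/- and 225.1 in Mili+/- (-0.45), while the subunit gene Nfya had 113.8 in Mili-/- and 97.6 in Mili+/- (0.11). Pgrmc1, which encodes a haem-binding partner of Cyp51, stood at -0.08. Insig1, the sterol-regulated anchor of SREBP, lay under the floor on both arrays.

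For uptake from lipoproteins, 7 of 11 listed genes had a probe set and 4 passed, with a median of 0.06 and none past 1.5-fold. Scarb1, the receptor for high-density lipoprotein, read 632.5 in Mili-/- and 609.4 in Mili+/- (-0.06). Lrpap1, a chaperone of lipoprotein receptors, had 251.2 in Mili-/- and 178.7 in Mili+/- (0.38). Lpl and Lrp1 stood at 0.18 and -0.11, with a dim second Lpl probe set at -0.31. Of 20 genes for transport, storage and efflux, 15 had a probe set and 12 passed, with a median of -0.13, that of all genes, and none past 1.5-fold. Lipa, the lysosomal lipase that frees cholesterol, was the highest at 0.35, and Fabp3 (-0.36), Dbi (-0.34) and Abca1 (-0.26) were the lowest, though a second Abca1 probe set stood at 0.17.

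Markers of cell types that a testis holds were read on the same arrays, and their sums are given as deposited, before the shift of 0.11 was removed. All 17 Sertoli cell markers with a probe set had a summed signal of 10615 in Mili-/- and 9358 in Mili+/-, and the 16 past the filter had a median of 0.06. The 13 germ cell markers summed to 3296 in Mili-/- and 3900 in Mili+/-, with a median of -0.49 over the 10 past the filter. Of these, Sall4 reached the brightness limit in Mili+/- alone, a passage that selects for lower Mili-/- values. Over the 9 past it on both arrays the median was -0.44. For Leydig cells, the sums of 8 markers were 1651 in Mili-/- and 1449 in Mili+/-, with a median of -0.29 over 6. Without Star, which also passed through Mili+/- alone, the median was -0.36 over 5. The higher sum rested on Nr5a1, which Sertoli cells also express. Without it, an alternative chosen after seeing the data, the sums were 768 in Mili-/- and 847 in Mili+/-. The 11 adipose markers summed to 539 in Mili-/- and 316 in Mili+/- and the 7 erythroid markers to 2093 in Mili-/- and 1551 in Mili+/-. Most of the erythroid sum was Hba-a1, with 1827.9 in Mili-/- and 1396.8 in Mili+/-. Only 5 adipose and 4 erythroid markers passed the filter. Of these, 3 adipose and 2 erythroid markers did so through Mili-/- alone, a passage that selects for higher Mili-/- values. The 12 macrophage markers (1040 in Mili-/- and 935 in Mili+/-) and the 11 peritubular and stromal markers (7654 in Mili-/- and 7079 in Mili+/-) were also summed. No marker of any list was at 0, though some, such as Cidec and Epb42, lay under the floor on both arrays. The signal of 1 of 17 Sertoli, 3 of 13 germ and 2 of 8 Leydig cell markers stayed under the brightness limit on both arrays. They were Krt18, then Gfra1, Dmc1 and Sycp3 (0.6 in Mili-/- and 1.1 in Mili+/-, under the floor), then Insl3 and Hsd17b3. In such bulk RNA, fewer cells of a type and less RNA per cell cannot be told apart, and the part of these cell types in the differences of Idi1, Lss and Dhcr7 was not tested.

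**Figure D4:**
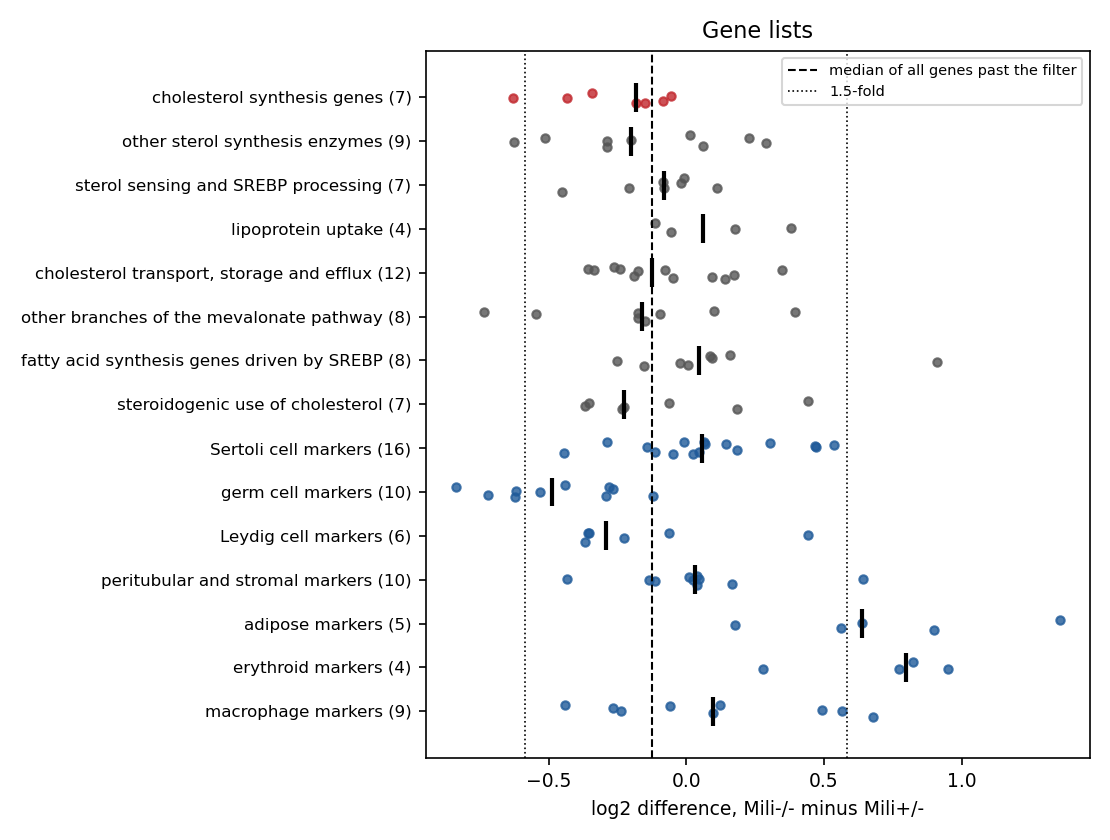
Log2 difference (Mili-/- minus Mili+/-, after centring) of each gene past the brightness filter, by list, with the number of genes in parentheses, red for the cholesterol synthesis genes, grey for related pathways and blue for cell type markers. Black bars are list medians, and dashed and dotted lines mark the median of all genes (-0.13) and 1.5-fold. The cholesterol synthesis genes have a median of -0.18, close to the dashed line, while germ cell markers lie at -0.49 (-0.44 over those past the filter on both arrays). Points include genes that passed the filter on 1 array alone.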

How the data were processed

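The deposited table holds signal intensity per probe set for 2 arrays, 1 per genotype. For scanner software, background correction and array scaling, the method is not given in the sources used here. Detection calls were not used. The authors' intensity values were used as deposited, after leaving out 66 control probe sets.

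Symbols came from a platform annotation, updated by Entrez ID through RefSeq genes of GRCm38.p6 (10817 of 10833 single-symbol probe sets matched). Each gene was represented by its brightest probe set, by the mean of both arrays. A gene was compared if its brighter array reached that array's median. Since arrays carry no counts, precision is limited by their number. The code was tested on data with known answers.

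The members, gene lists and thresholds were chosen with earlier results of these data known. Named genes were all members and a short set of regulators (among them Srebf1, Srebf2, Insig1, Scarb1, Star and Cyp11a1) where a single-symbol probe set existed. From each other pathway list they were the up to 4 genes past the filter with the largest absolute difference. Cell type markers were not named by this rule, but where they were dim or bore on a sum or median. Sc5d, Ebp, Lbr and second probe sets were added after their values were seen. Alternatives covered scaling, floor, filter, choice of probe set and threshold. Python 3.11.15, NumPy 2.4.6, pandas 2.3.3, statsmodels 0.14.6 and matplotlib 3.10.9 were used.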

Additional observations from a re-analysis of the deposited data

How the results depend on the processing

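Of the 7 genes past the filter, 1 (Dhcr7) was at least 1.5-fold lower. This count was 0 without centring, after quantile normalization, after loess, with the filter at the 75th percentile (which leaves Lss and Dhcr7 out), at a 2-fold threshold, and when centring on the genes past the filter, a setting chosen after seeing the data. It was 3 at the lower threshold (0.32 on the log2 scale), and 1 under each of the other 7 settings run. No setting gave a member 1.5-fold higher. The median of the members was -0.18. It was -0.07 without centring, -0.07 after quantile normalization, -0.07 after loess, -0.059 with the added centring and -0.24 with the mean over probe sets past the filter. Relative to all genes it lay between -0.12 and -0.02. Dhcr7 ranged from -0.63 to -0.50, Lss from -0.43 to -0.31 and Idi1 from -0.34 to -0.19, while Fdft1 (-0.05 to 0.09) and Sqle (-0.08 to 0.06) changed sign. The added centring turned the split of all genes past 1.5-fold to 212 higher and 115 lower, against 126 and 257. No paired analysis was possible because each genotype had 1 array. The signals of Cyp51, near the median of all probe sets, and of the 2 dim Fdps probe sets, at or under the floor, limit what can be read from them.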

Other observations

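Genes next to the cholesterol chain held some larger differences. Among the other branches of the mevalonate pathway, 8 of 15 listed genes had a probe set and all 8 passed the filter, with a median of -0.16 against -0.13 for all genes. Fntb, the farnesyltransferase beta subunit that uses the product of Fdps, read 34.0 in Mili-/- and 52.4 in Mili+/- (log2 difference -0.73). Only its Mili+/- signal reached the brightness limit, and such a passage selects for lower Mili-/- values. Rabggtb, a subunit of the transferase that prenylates Rab proteins, had 90.9 in Mili-/- and 122.9 in Mili+/- (-0.55). Icmt, which methylates prenylated proteins, had 50.9 in Mili-/- and 35.9 in Mili+/- (0.39) and reached the limit in Mili-/- alone. Coq7, of ubiquinone synthesis, stood at -0.18.

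Fatty acid synthesis genes, which SREBP-1 drives, had a median of 0.05 over 8 genes past the filter, and 1 of them was at least 1.5-fold higher. That gene was the desaturase gene Scd1, with 140.3 in Mili-/- and 69.1 in Mili+/- (0.91). Its other probe sets were dim, at 39.8 and 5.7 in Mili-/- against 28.8 and 5.3 in Mili+/-. Scd2 (-0.25, and -0.47 in a second probe set), Fasn (-0.16) and Gpam (0.16) lay closer to the median of all genes. Adipose markers, among which Scd1 is often counted, summed to 539 in Mili-/- and 316 in Mili+/-, and their part in the Scd1 difference was not tested.

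Genes that turn cholesterol into steroids had a median of -0.23 over 7 past the filter, with none past 1.5-fold. Over the 6 past it on both arrays, without Star, the median was -0.15. Nr5a1, the transcription factor SF-1 of steroidogenic and Sertoli cells, read 883.4 in Mili-/- and 602.2 in Mili+/- (0.44), and further probe sets past the filter stood at 0.38 and 0.09. Cyp17a1 (-0.37), Hsd3b1 (-0.36, and -0.16 in a second probe set past the filter) and Fdx1 (-0.23) were lower. Star stood at -0.23 near the brightness limit (a second, dim probe set at 0.61). Cyp11a1, the cholesterol side-chain cleavage enzyme of mitochondria, was at -0.06.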
